A study of Mus musculus with 2 samples.

Results

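Purine receptors and ectonucleotidases are the surface proteins with which microglia, the resident macrophages of nervous tissue, sense and break down nucleotides outside the cell. The 8 genes described here were chosen by name and role, with earlier results of these data known, from the 13549 genes of the deposited table: *P2ry12*, *P2ry13*, *P2ry6*, *P2rx4*, *P2rx7*, *Entpd1*, *Nt5e* and *Adora3*. All 8 passed the minimum of 20 reads summed over the libraries that was used for every ratio below.

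Retinal microglia were sorted from mice at postnatal day 5 that carried CD11c-Cre-gfp and Rosa-TDTom. In these mice the promoter of CD11c, an integrin subunit, drives a Cre recombinase with GFP, and Cre switches on TdTomato for good. Cells with GFP and TdTomato (Cd11c-active, 4041 cells) and cells with TdTomato but no GFP (Cd11c-lineage, 5441 cells) came from a pool of 8 retinas, 4 of each sex, and no treatment is named. Each group gave 1 library of ribosomal RNA-depleted total RNA, so no difference below has a replicate check, no p-value is given, and intervals cover counting error in these libraries only.

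Injured and dying cells release ATP and UTP, which enzymes on cell surfaces cut step by step to ADP or UDP, to AMP and then to adenosine. Each product has its own receptors: P2X channels open on ATP, some P2Y receptors respond to ADP and others to UDP, and P1 receptors respond to adenosine. In microglia this system is known for steering processes towards injured cells and for tuning engulfment and inflammasome activation. The series title links CD11c-expressing microglia to apoptotic cells, and the comparison of these genes asks how the nucleotide-sensing equipment of current and earlier users of the promoter differs.

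The Cd11c-active library held 12943998 reads and the Cd11c-lineage library 13402625. Levels are in CPM, reads relative to the library size after TMM scaling, and ratios are Cd11c-active over Cd11c-lineage on the log2 scale. All 12 microglial marker genes were present at levels within 2-fold of each other in the libraries, with summed levels of 23325 and 22410 CPM. Other cell types differed: all 8 endothelial markers were over 2-fold higher in Cd11c-active (sum 646 against 73.7 CPM, 5 with 0 reads in Cd11c-lineage), and all 5 pericyte markers had 0 reads in Cd11c-lineage (sum 62.8 CPM in Cd11c-active). All 5 border macrophage markers in the table were over 2-fold lower in Cd11c-active (21.2 against 131 CPM), 4 of them with 0 reads there, and the 12 retinal neuron markers summed to 98.3 against 227 CPM. In bulk RNA, fewer cells of a type and less RNA per cell cannot be told apart.

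Of the 8 genes, 7 were within 2-fold of equal levels, with log2 ratios from -0.36 (*P2ry12*) to 0.23 (*Entpd1*). *Nt5e*, read 0 times in Cd11c-active against 45 times in Cd11c-lineage, was the only gene of the set past 2-fold, and it was lower in Cd11c-active. Of all 13037 genes that passed the same minimum, 44.9% were past 2-fold, 23.3% higher and 21.6% lower in Cd11c-active. Such differences were rarer among abundant genes: of the 4619 genes with a summed count of 1000 or more, 9.57% were past 2-fold (5.43% higher and 4.14% lower), and of the 6 purinergic genes at that depth, 0 were. The median log2 ratio was 0.04 over the 8 genes and 0.01 over all genes tested. Setting *Nt5e* to the 3 reads that a count of 0 allows could not move the median of the 8, since *Nt5e* stayed the lowest of them.

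**Figure D1:**
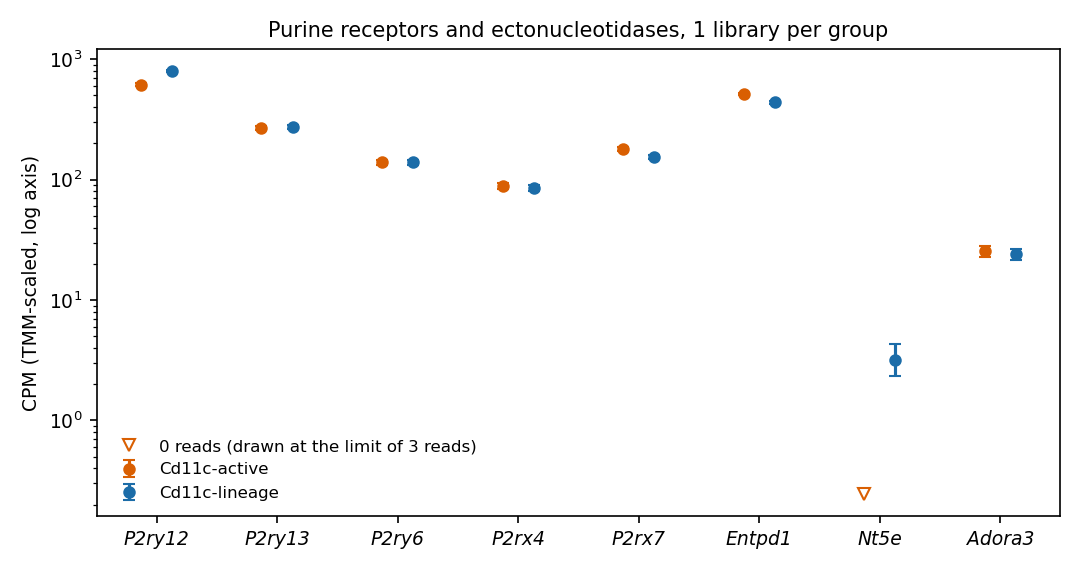
Level of each gene in CPM (log axis) in the Cd11c-active and Cd11c-lineage libraries, with exact Poisson 95% intervals that cover counting error only. *P2ry12* was lower in Cd11c-active (615 against 791 CPM), *Entpd1* was higher (514 against 437 CPM), and *Nt5e* had 0 reads there (open triangle, drawn at the limit of 3 reads).

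The ADP receptors were the most abundant group. *P2ry12* (ENSMUSG00000036353) encodes the Gi-coupled receptor by which microglial processes move towards ADP, and its high level is a mark of surveying microglia. Reads of *P2ry12* numbered 7592 in the Cd11c-active and 11119 in the Cd11c-lineage library, or 615 CPM (95% counting interval 601 to 629) and 791 CPM (777 to 806). The Cd11c-active library was the lower one by 22.3%, a log2 ratio of -0.36 (-0.41 to -0.32). The counting intervals of the levels did not overlap.

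The libraries, however, differed by more than counting error at every abundance. Among the 500 genes nearest to *P2ry12* in reads over both libraries (7545 to 44913 reads), the middle 95% of log2 ratios ran from -0.62 to 0.77. *P2ry12* lay inside that range, at percentile 12.8. Its difference was thus larger than counting error and within the spread of genes of like abundance between these libraries.

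*P2ry13* (ENSMUSG00000036362) encodes another Gi-coupled ADP receptor, closely related to P2RY12. It had 3295 and 3848 reads, or 267 and 274 CPM, and a log2 ratio of -0.04 (-0.10 to 0.03) under TMM. The ratio of *P2ry13* was -0.17 (-0.24 to -0.11) under library totals and -0.095 (-0.16 to -0.03) scaled to the microglial markers. Relative to this neighbouring gene of the same receptor class, *P2ry12* was lower in Cd11c-active: there were 2.30 reads of *P2ry12* per read of *P2ry13* in Cd11c-active and 2.89 in Cd11c-lineage. This within-library ratio does not depend on scaling, and its log2 difference was -0.33 (-0.41 to -0.25). The summed reads of both ADP receptors gave a log2 ratio of -0.27 (-0.31 to -0.24).

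**Figure D2:**
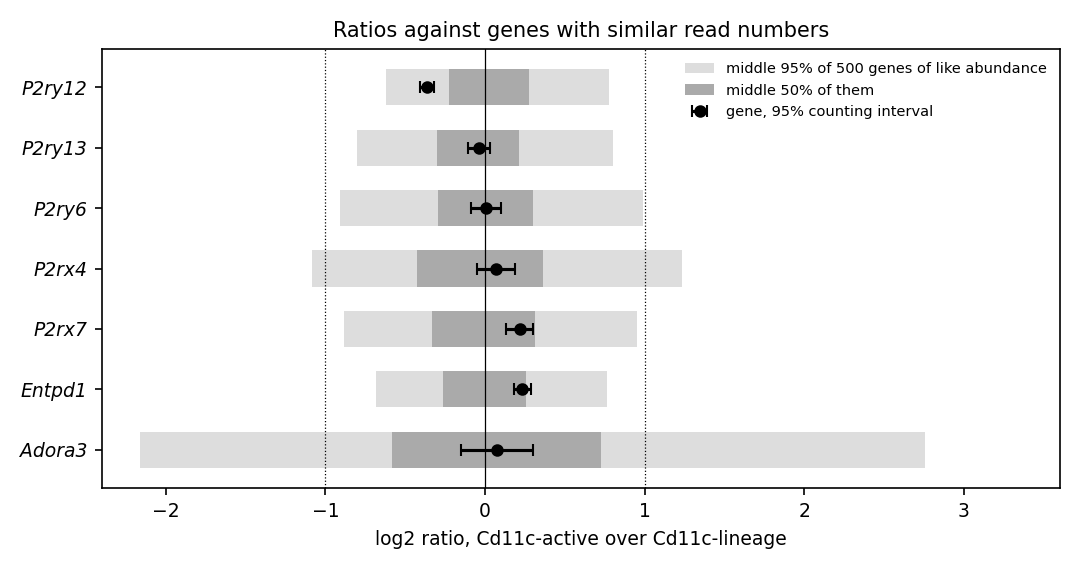
Log2 ratio of each gene, Cd11c-active over Cd11c-lineage, with its 95% counting interval (black), over the middle 95% (light grey) and middle 50% (dark grey) of the 500 genes nearest in reads. All 7 ratios shown lie inside the light bars, and that of *P2ry12* (-0.36) lies below its dark bar; *Nt5e*, with 0 reads in Cd11c-active, is left out.

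*P2ry12* was also set against the microglial markers within each library. The 12 markers had a median log2 ratio of 0.02, and 12.8% of the 500 genes of like abundance had a ratio below that of *P2ry12*. Low values per marker read therefore restate the ratio of *P2ry12* itself and are no separate result about the markers. Per read of each of the 12 microglial markers, *P2ry12* was lower in Cd11c-active for 11 of the 12, with a median log2 difference of -0.38. The smallest of these differences was against *Tmem119* (-0.08, interval -0.15 to -0.0047), a surface marker of surveying microglia. The largest was against *Trem2* (-0.94, interval -1.01 to -0.88), which encodes a lipid and apoptotic cell receptor. The exception was *Siglech*, a sialic acid-binding receptor of microglia, which had 2139 and 3539 reads and an even lower ratio than *P2ry12* (-0.54).

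*P2ry6* (ENSMUSG00000048779) encodes the Gq-coupled UDP receptor that is known to trigger uptake of particles by microglia. The libraries held 1720 reads of it (Cd11c-active) and 1952 (Cd11c-lineage), or 139 CPM (133 to 146) and 139 CPM (133 to 145). The log2 ratio was 0.0041 (-0.09 to 0.10), and the levels of the libraries overlapped. After removal of a trend of the ratio with transcript length and GC content it was -0.25, outside the counting interval, and under library totals it was -0.13 (-0.23 to -0.04), so near-equality of this gene depends on both choices.

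The ATP-gated cation channels lay on either side of *P2ry6* in read number. *P2rx4* (ENSMUSG00000029470), a channel that opens at low ATP and sits largely on lysosomes, had 1100 and 1192 reads, or 89.1 and 84.8 CPM. Its log2 ratio was 0.07 (-0.05 to 0.19), and its levels in the libraries overlapped. *P2rx7* (ENSMUSG00000029468), which needs high ATP and is coupled to inflammasome activation, had 2211 and 2166 reads, or 179 CPM (172 to 187) and 154 CPM (148 to 161). Its ratio of 0.22 (0.13 to 0.30) was above counting error under TMM and stood at percentile 69.2 of genes of like abundance. Under library totals it was 0.08 and its interval (-0.0062 to 0.17) held 0, so no direction is given for *P2rx7*. Reads of *P2rx7* per read of *P2rx4* numbered 2.01 and 1.82, a log2 difference of 0.15 whose interval (-0.0022 to 0.29) held 0, so the channels were not shown to differ from each other.

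The ectonucleotidases stood far apart in abundance. *Entpd1* (ENSMUSG00000048120) encodes CD39, which cuts ATP and ADP to AMP. Its reads numbered 6347 and 6141, or 514 CPM (501 to 527) and 437 CPM (426 to 448). The Cd11c-active library was the higher one, with a log2 ratio of 0.23 (0.18 to 0.29), at percentile 74.0 of genes of like abundance. Endothelial cells also carry CD39, and the endothelial markers moved in the same direction by 646 against 73.7 CPM; their part in the *Entpd1* difference was not tested.

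*Nt5e* (ENSMUSG00000032420) encodes CD73, which turns AMP into adenosine. Its 0 reads in Cd11c-active allow up to 0.243 CPM, and its 45 reads in Cd11c-lineage were 3.20 CPM (2.34 to 4.29). Set against that limit, the 45 reads put *Nt5e* at least 13.2-fold lower in Cd11c-active, without counting error in Cd11c-lineage. The 95% counting interval of the log2 ratio, which includes it, ended at -3.36. Of the 500 genes nearest to it in reads (39 to 52 over both libraries), however, 40.6% were at 0 in the Cd11c-active and 44.8% in the Cd11c-lineage library. A count of 0 was thus common at this depth in either library. The 5 border macrophage markers in the table, like *Nt5e*, were lower in Cd11c-active. Of the 12 retinal neuron markers, 7 were past 2-fold lower, 1 (*Rbpms*, with 325 and 126 reads) past 2-fold higher and 4 within 2-fold. The part of either list in the *Nt5e* difference was not tested.

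*Adora3* (ENSMUSG00000000562) encodes the Gi-coupled A3 adenosine receptor. It had 313 and 338 reads, or 25.4 CPM (22.6 to 28.3) and 24.1 CPM (21.6 to 26.8), and a log2 ratio of 0.08 (-0.15 to 0.30). The levels of the libraries overlapped. In the mouse annotation provided (GENCODE M21, GRCm38), 20.9% of its exon bases are shared with *Tmigd3* on the same strand, a gene without a row in the table, so how the authors' counting assigned those bases is unknown here.

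Levels of different genes were compared per kilobase of exon, as CPM divided by exon length (RPKM). In Cd11c-active *P2ry12* was highest at 242, followed by *P2ry13* (106), *Entpd1* (92.1), *P2ry6* (48.3), *P2rx7* (30.0), *P2rx4* (12.7) and *Adora3* (6.80), with *Nt5e* at 0. The order was the same in Cd11c-lineage, at 311, 108, 78.3, 48.1, 25.8, 12.1, 6.45 and 0.372 RPKM. On this scale *P2ry12* ranked at position 112 of 13499 genes with a length in Cd11c-active and at 67 in Cd11c-lineage, while *Adora3* ranked at 5332 and 5412. The order of *P2ry13* and *Entpd1* depends on the length used: with the longest transcript in place of all exons, *Entpd1* was at 122 and *P2ry13* at 106 RPKM in Cd11c-active, and 104 and 108 in Cd11c-lineage.

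As a share of all reads on the 8 genes (22578 and 26801), *P2ry12* made up 33.6% in Cd11c-active (Wilson 95% interval 33.0 to 34.2) and 41.5% in Cd11c-lineage (40.9 to 42.1). *Entpd1* made up 28.1% (27.5 to 28.7) and 22.9% (22.4 to 23.4). There were thus 1.20 reads of the ADP receptor gene *P2ry12* per read of the ADP-degrading enzyme gene *Entpd1* in Cd11c-active and 1.81 in Cd11c-lineage, a log2 difference of -0.60 (-0.66 to -0.53). Outside the pairs with *Nt5e*, this was the widest shift between *P2ry12* and another gene of the set, followed by that against *P2rx7* (-0.58, interval -0.68 to -0.48). It had to be, since *P2ry12* had the lowest and *Entpd1* the highest ratio apart from *Nt5e*. Each of these ratios lay within the middle 95% of genes of like abundance, and the interval of the shift covers counting error only.

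**Figure D3:**
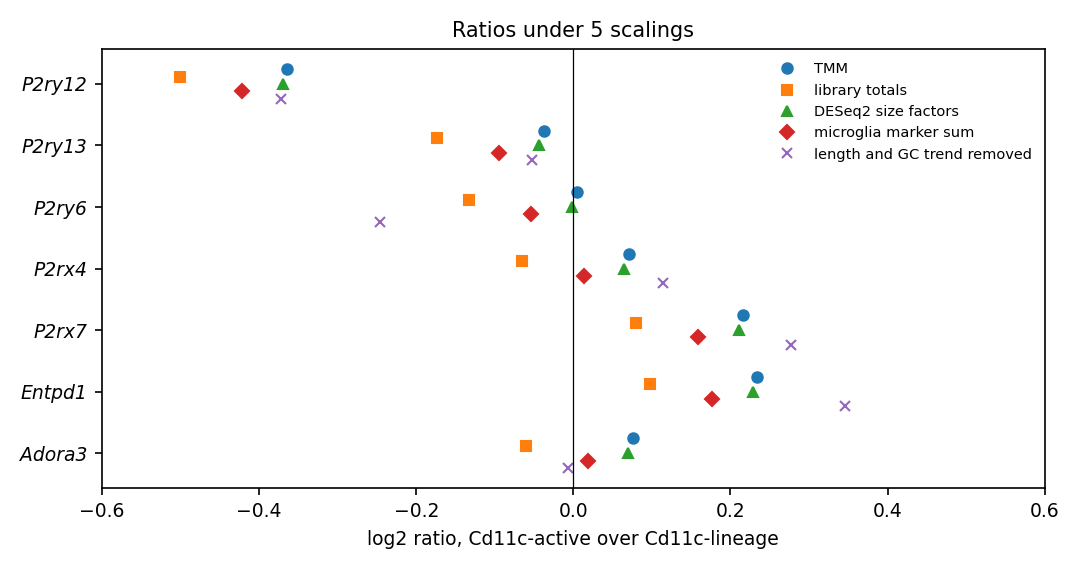
Log2 ratio of each gene under TMM, library totals, DESeq2 size factors, the summed reads of microglial markers, and TMM with a length and GC trend removed. *P2ry12* stayed between -0.50 and -0.36 and *Entpd1* between 0.10 and 0.35, while *P2ry6*, *P2rx4* and *Adora3* changed sign around 0; *Nt5e* is left out.

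The scaling moves all genes together. Under library totals every ratio was lower by 0.14, which put *P2ry12* at -0.50, *P2ry13* at -0.17, *P2rx7* at 0.08 and *Entpd1* at 0.10. The authors' deposited table, which the values show to be relative to library totals, gives log2 fold changes of -0.50 for *P2ry12* and 0.10 for *Entpd1*. Scaled to the microglial markers, *P2ry12* was at -0.42 and *Entpd1* at 0.18. *P2ry6*, *P2rx4* and *Adora3* changed sign with the scaling, and no direction is given for them.

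Upstream sequences are shown for the receptors whose counting interval under TMM held 0 and whose window had no annotated exon, to let the reader see how different the start regions of these genes are. Each is the 250 bases before a RefSeq start (GRCm38.p6, an older build than the GRCm39 of the authors), with CG pairs in capitals.
P2ry13, chr3:59210883-59211132, minus strand: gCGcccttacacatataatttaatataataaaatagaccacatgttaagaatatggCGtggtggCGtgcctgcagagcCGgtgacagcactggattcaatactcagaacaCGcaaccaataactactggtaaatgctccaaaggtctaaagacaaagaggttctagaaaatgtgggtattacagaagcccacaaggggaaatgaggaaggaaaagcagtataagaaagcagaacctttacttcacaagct
P2rx4, chr5:122707294-122707543, plus strand: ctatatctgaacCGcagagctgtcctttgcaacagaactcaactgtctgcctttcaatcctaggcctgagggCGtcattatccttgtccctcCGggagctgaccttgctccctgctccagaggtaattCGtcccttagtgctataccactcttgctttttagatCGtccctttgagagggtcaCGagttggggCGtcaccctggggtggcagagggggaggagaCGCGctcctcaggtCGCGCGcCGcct
Adora3, chr3:105904171-105904420, plus strand: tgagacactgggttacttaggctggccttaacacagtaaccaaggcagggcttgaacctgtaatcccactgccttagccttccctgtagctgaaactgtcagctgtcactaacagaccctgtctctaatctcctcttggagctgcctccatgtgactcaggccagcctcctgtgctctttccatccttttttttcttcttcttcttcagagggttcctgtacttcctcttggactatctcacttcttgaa
These windows hold 5, 13 and 0 CG pairs, against a median of 6 over all 32851 windows. The letters GAGGAA, a core of sites of the myeloid factor PU.1, were searched on both strands without removing overlaps and occur in those of *P2ry13* and *Adora3* and not in that of *P2rx4*. Over all 9 windows of the set they occur in 3, and they occur in 23.3% of all windows of this length. *P2ry6* has no entry.

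The other genes of the purinergic pathway were taken from 7 lists covering 80 genes, of which 56 were in the table and 54 had at least 20 reads. Of these, 17 were past 2-fold higher and 5 past 2-fold lower in Cd11c-active, together 40.7%, next to the 44.9% over all genes. Low read numbers held most of them: 21 of the 22 had under 1000 reads over both libraries, and 11 had 0 reads in either Cd11c-active or Cd11c-lineage. The same was true over all genes, where 5851 were past 2-fold and 442 of these had at least 1000 reads. Among the 23 pathway genes with at least 1000 reads the median log2 ratio was 0.05, and *Lrrc8d* was the gene past 2-fold.

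Of the remaining P2X and P1 receptors, *P2rx1*, an ATP-gated channel of platelets and smooth muscle, had 583 and 149 reads (log2 ratio 2.15, interval 1.89 to 2.42). The Cd11c-active library was the higher one, and the ratio lay within the middle 95% of genes of like abundance (-2.05 to 2.67). *Adora2a*, the Gs-coupled adenosine receptor 2a, had 169 and 34 reads (2.48, interval 1.96 to 3.08), also higher in Cd11c-active and within the middle 95% at its own abundance (-8.56 to 8.91). *P2rx6* had 66 and 0 reads. *Adora1*, the Gi-coupled A1 receptor, had 113 and 107 reads and overlapping levels. Pericyte and endothelial markers were higher in the same library as *P2rx1* and *Adora2a*, while the erythroid and platelet markers were lower there (sum 0 against 293 reads, with the platelet gene *Itga2b* at 0 and 262). The part of these cells was not tested.

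Of the remaining P2Y receptors, *P2ry2*, which responds to ATP and UTP, had 144 and 154 reads and a ratio of 0.09 (-0.25 to 0.43). *P2ry14*, a receptor for UDP-glucose, had 0 and 85 reads, and *P2ry10b* had 32 and 0. Of genes with as many reads as *P2ry14*, 31.0% had 0 reads in Cd11c-active. Other nucleotide-cutting enzymes numbered 10 with enough reads, with 6 past 2-fold higher and 1 lower in Cd11c-active, beside 23.3% and 21.6% of all genes. Of the 10, 8 had under 1000 reads, where differences past 2-fold were common. The most abundant were *Enpp1*, which cuts ATP to AMP (957 and 758 reads, ratio 0.52, interval 0.38 to 0.66), and *Entpd7*, an intracellular relative of CD39 (743 and 565 reads, 0.58, interval 0.42 to 0.74). Neither reached 2-fold. *Entpd5*, an enzyme of the endoplasmic reticulum, had 301 and 20 reads (4.07, interval 3.45 to 4.83), and *Entpd6*, an enzyme of the Golgi, had 160 and 54 (1.74, interval 1.30 to 2.23).

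Nucleoside transport and metabolism was led by *Slc29a3*, the lysosomal nucleoside transporter. It had 4993 and 7568 reads and a ratio of -0.41 (-0.47 to -0.36), lower in Cd11c-active at percentile 11.4 of genes of like abundance. Of the 10 genes of this list with enough reads, 2 were past 2-fold higher (*Slc29a2* and *Ampd3*) and 1 lower (*Adk*, adenosine kinase, with 39 and 143 reads), beside 23.3% and 21.6% of all genes. *Pnp*, *Slc29a1* and *Lacc1*, each with over 1000 reads, were within 2-fold. Among 8 ATP release genes, 3 were past 2-fold higher and 1 lower, beside the same shares of all genes. *Lrrc8d*, a subunit of volume-regulated anion channels, was lower in Cd11c-active with 648 and 1519 reads (-1.04, interval -1.18 to -0.91), while *Lrrc8a*, the obligatory subunit, had 612 and 635 reads (0.13, interval -0.03 to 0.30). A further subunit gene, *Lrrc8c*, had 301 and 34 reads (3.31, interval 2.82 to 3.89). *Gja1*, the connexin of astrocytes and vessel walls, had 453 and 0 reads.

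**Figure D4:**
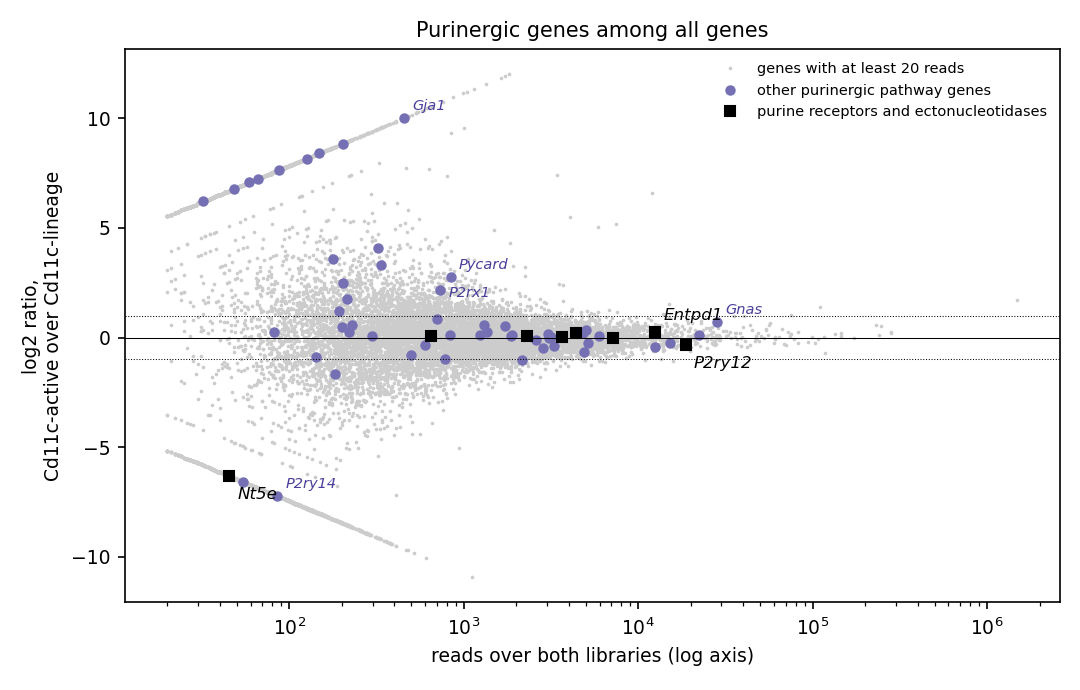
Log2 ratio, Cd11c-active over Cd11c-lineage, against reads over both libraries (log axis) for all genes with at least 20 reads (grey), the other purinergic pathway genes (violet) and the 8 genes described (black). The black points lie near 0 apart from *Nt5e* on the lower edge, where genes with 0 reads in Cd11c-active fall, and *Pycard* and *P2rx1* stand above the dotted 2-fold line.

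Downstream of the receptors, 19 genes had enough reads, with 2 past 2-fold higher, 1 past 2-fold lower (*Camkk2*, at the threshold with -1.002) and 16 within, beside 44.9% past 2-fold over all genes. Of the 15 with at least 1000 reads, 0 were past 2-fold, beside 9.57% of all genes at that depth. The Gi protein genes, through which P2RY12 signals, did not share a ratio: *Gnai2* had 10785 and 11390 reads and a ratio of 0.11 (0.07 to 0.15), and *Gnai3* had 1102 and 1749 reads and a ratio of -0.48 (-0.59 to -0.37). *Pik3cg*, a lipid kinase driven by Gi-coupled receptors, had 1750 and 3116 reads, lower in Cd11c-active (-0.65, interval -0.73 to -0.56, percentile 7.60). *Kcnk13*, the potassium channel THIK-1 that acts with P2RY12 in surveillance, had 1169 and 1441 reads (-0.12, interval -0.23 to -0.0029). *Gnas*, the Gs protein gene used by the product of *Adora2a*, had 16517 and 11624 reads, higher in Cd11c-active (0.69, interval 0.66 to 0.73, percentile 96.8). *Gnaq*, *Gna13*, *Plcb2*, *Plcb3*, *Rap1b*, *Mapk14* and *Arrb2*, each with over 1000 reads, had ratios from -0.39 (*Plcb3*) to 0.36 (*Arrb2*). *Gna11*, a Gq family gene, had 202 and 0 reads.

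The inflammasome genes that P2RX7 engages did not share a ratio. *Nlrp3*, the sensor, had 2886 and 3110 reads (0.08, interval 0.0051 to 0.15), and *Il1b*, the cytokine, had 1502 and 1660 (0.04, interval -0.06 to 0.14). *Gsdmd*, the pore former, had 934 and 968 reads (0.13, interval 0.0037 to 0.27). *Casp1*, the protease, had 432 and 273 reads (0.85, interval 0.63 to 1.07). *Pycard*, the adaptor ASC, had 720 and 121 reads, higher in Cd11c-active at 2.75 (2.48 to 3.05), above the middle 95% of genes of like abundance (-1.83 to 2.53). *Pycard* and *Gja1* were the 2 of the 54 pathway genes outside that range, which by its construction leaves out 5% of genes.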

How the data were processed

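Counts per gene were deposited by the authors as whole reads without normalization, per the file headers. Their table also gives the authors' log2 fold change, used only where named, and a log2 average CPM, not used. The submitters' processing notes name cutadapt 3.5, STAR 2.7.9a, featureCounts 1.6.3, edgeR 4.0.16 and GRCm39. The annotation, strand setting and duplicate handling are not given in the sources used here. No gene had under 6 reads over both libraries.

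Library sizes were scaled with TMM (edgeR 4.0.16 in R 4.3.3; factors 0.954 and 1.05). The log2 ratio used reads plus 0.5, with exact Clopper-Pearson 95% intervals. With 1 library per group no residual degrees of freedom remain, so edgeR and DESeq2 tests could not be fitted, and past 2-fold means an absolute log2 ratio of at least 1. Spread beyond counting was described by the 500 genes nearest in reads. Within-library ratios have exact conditional intervals. A count of 0 allows 3 reads (0.243 and 0.214 CPM). No molecular identifiers are named, so reads may repeat molecules and all limits cover counting error only. Lengths came from GENCODE M21 (GRCm38) and matched 13499 genes (99.6%). Promoter windows matched 7 of the 8 genes by symbol. The ratio and interval code was tested on simulated data. Columns of unmapped samples numbered 0.

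All 8 genes were named by rule. Pathway genes of the fixed lists with at least 1000 reads, or at least 200 reads and a 2-fold ratio, were named or counted by list; others named (*P2rx6*, *P2ry2*, *P2ry14*, *P2ry10b*, *Adora1*, *Slc29a2*, *Ampd3*, *Adk*, *Casp1*) complete a list's account and were chosen after their values were seen. Members and lists were chosen with earlier results of these data known. Of the marker lists, monocyte and neutrophil (35 and 239 reads), dendritic (200 and 0), Muller glia and astrocyte (28098 and 34016, or 325 and 723 without *Glul*, which microglia also express) and erythroid and platelet (0 and 293) are given as summed reads in Cd11c-active and Cd11c-lineage. Within lists, directions differed. Of 5 Muller glia and astrocyte markers, 3 were past 2-fold higher in Cd11c-active and 1 lower (*Slc1a3*, 73 and 642 reads). Of 4 monocyte and neutrophil markers, 1 was past 2-fold higher (*Ccr2*, 35 and 0 reads) and 3 lower. Over all genes 23.3% were higher and 21.6% lower. Alternatives were library totals, DESeq2 size factors (DESeq2 1.42.0), microglial marker sums, ribosomal and mitochondrial genes left out, a prior count of 5, other read minimums, 200 or 1000 nearest genes, and removal of a length and GC trend. Python 3.11.15, numpy 2.4.6, scipy 1.17.1, pandas 2.3.3 and matplotlib 3.10.9 were used.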

Additional observations from a re-analysis of the deposited data

How the results depend on the processing

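No paired analysis was possible because each group had 1 library, and for the same reason no library could be left out. Of 63 recomputed ratios of single genes, 52 stayed inside the counting interval of the main value, 11 did not, and 0 past 2-fold changed sign. The 52 include the ratios under other read minimums, which only drop genes and leave each ratio as it was. Those could not have moved. The sign held under all 8 alternatives for *P2ry12*, *P2ry13*, *P2rx7*, *Entpd1* and *Nt5e* (7 alternatives for *Nt5e*, which a minimum of 100 reads removes). It changed for *P2ry6*, *P2rx4* and *Adora3*. The read minimums among the alternatives could not change a sign. A sign that held is also not a clear direction: the counting interval of *P2ry13* held 0 under TMM (-0.10 to 0.03), as did that of *P2rx7* under library totals (-0.0062 to 0.17). With the minimum of 100 reads, 0 of the 8 genes were past 2-fold lower, and over all genes 1802 were higher and 1711 lower, against 3033 and 2818. With a prior count of 5 the ratio of *Nt5e* was -3.14 in place of -6.32. The summed reads of the ADP receptors gave -0.27 under TMM, -0.41 under library totals and -0.33 against microglial markers. Those of the ATP-gated channels gave 0.17 under TMM and 0.030 under library totals. Those of the ectonucleotidases gave 0.22 under TMM, 0.087 under library totals, 0.17 against microglial markers and 0.34 after trend removal. Those of all 8 genes gave -0.06 under TMM, -0.20 under library totals and -0.12 against microglial markers. Without *P2ry12* the sum under TMM had the opposite sign, at 0.12 (0.09 to 0.15). With the 1000 nearest genes *P2ry12* stood at percentile 17.0. The pathway genes past 2-fold numbered 17 higher and 5 lower of 54 under TMM. They were 17 and 6 under library totals, 17 and 4 with a prior count of 5, 19 and 5 of 56 without a minimum, and 12 and 3 of 46 with a minimum of 100 reads. The other alternatives left them at 17 and 5. Levels per length moved for 7 of the 8 genes with the longest transcript, a choice added after seeing the data. The depth limits *Nt5e* and *Adora3* most: ratios of genes with reads as few as *Adora3* spread from -2.16 to 2.75.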

Other observations

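*P2ry12* and *P2ry13* lie inside the long gene *Med12l*, a Mediator subunit gene on the opposite strand, together with *P2ry14*. Of the exon bases of *P2ry12*, 9 (0.353%) overlap exons of *Med12l*, and 0 of *P2ry13* do, in the GENCODE M21 annotation. *Med12l* was read 574 times in Cd11c-active and 277 times in Cd11c-lineage. Its log2 ratio was 1.24 (interval 1.03 to 1.45), higher in Cd11c-active and of the opposite sign to *P2ry12* (-0.36). *Igsf10*, an immunoglobulin superfamily gene next to this cluster, had 213 and 658 reads (-1.44, interval -1.67 to -1.22). *Camkk2*, a calcium-dependent kinase gene beside *P2rx4*, had 238 and 543 reads (-1.002, interval -1.23 to -0.78), while *P2rx4* was at 0.07. The ratios of *Med12l*, *Igsf10* and *Camkk2* lay within the middle 95% of genes of like abundance (-1.78 to 2.60, -1.76 to 2.38 and -1.91 to 2.86). Of 8 genes near the loci of the set with at least 20 reads, 1 was past 2-fold higher, 3 lower and 4 within 2-fold, beside 23.3% higher and 21.6% lower over all genes. Those within were *P2ry2* (0.09), *Fchsd2* (-0.15), *Snx14* (0.26) and *Atp5pb* (0.41).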
